A study of Rattus norvegicus with 34 samples.

Results

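The early response of NRK-52E cells to monuron was read from 6 arrays, 3 of cells labelled as exposed to monuron for 6 h and 3 of cells kept for 6 h in DMSO alone. The 6 arrays were chosen by their titles, out of 34 samples in the study. The remaining 28 were the same cells at 24 and 72 h and kidney and liver of rats. NRK-52E is an established line from rat kidney that the labels call proximal tubule epithelium of Osborne-Mendel origin, grown to confluence in medium with fetal calf serum. Both groups carried 0.1% DMSO. The protocol for the cells names a different chemical, chlorothalonil, at 1.1 µM, whereas each sample label reads monuron. Which compound the cells received is therefore uncertain and its concentration is not known, and monuron is used here as the labels use it. The arrays of a group are labelled as biological replicates, and the protocol speaks of 3 studies at each time.

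Monuron is a phenylurea herbicide that blocks photosystem II in plants. Animal cells sense shortage of amino acids, and several other stresses, through kinases that phosphorylate the initiation factor eIF2, which slows translation and at the same time raises translation of the transcription factor ATF4. ATF4 turns on genes for amino acid uptake and synthesis and for tRNA charging. Cholesterol and fatty acid synthesis are governed by the SREBP factors, which are held in the endoplasmic reticulum by Scap and the Insig proteins while sterol is plentiful and are released to the nucleus when it is scarce. Genes of glucose uptake and glycolysis are raised by the hypoxia-inducible factors (HIF) when oxygen is low.

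Levels are log2 expression values per gene, and a difference is monuron minus DMSO on that scale, so that 1 unit is a doubling. A gene is called changed at an adjusted p below 0.05 in limma's moderated test of 3 arrays against 3, with the Benjamini-Hochberg adjustment over the 8850 genes tested. SE is the moderated standard error. The median level was 4.039, 4.068 and 4.107 on the monuron arrays and 3.956, 4.024 and 4.035 on the DMSO arrays. Every monuron median thus lay above every DMSO median, with a mean shift of 0.066. Values well below the median of an array are near background. Across the 8850 genes tested, Pearson's r ranged from 0.990 to 0.997 within groups and 0.980 to 0.990 between them. The first principal component carried 56.7% of the variance and put the monuron arrays at 7.18, 17.1 and 16.5 and the DMSO arrays at -23.6, -9.74 and -7.44. The second carried 23.1% and set replicate 1 of both groups, at 14.3 for monuron and 9.68 for DMSO, apart from the other 4 arrays. Counts were therefore also taken without replicate 1 of both groups, an alternative added after seeing the data, which gave 1931 calls.

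The labelled cell type was set against marker genes. Of 22 proximal tubule markers on the array, 3 (Ggt1, Mme and Slc4a4) lay above the array median on all 6 arrays and 19 on none of them. The endocytic receptors Lrp2 and Cubn, the phosphate transporter Slc34a1, the water channel Aqp1 and the factor Hnf4a were among the 19, with mean levels of 2.31, 1.95, 2.27, 2.37 and 2.33 on the monuron arrays and 2.34, 1.96, 2.31, 2.39 and 2.34 on the DMSO arrays. Of 13 markers of renal and simple epithelium, Krt8, Tjp1 and Ocln were above the median and 10, Cdh1, Epcam and Pax8 among them, were not. Of 12 fibroblast and mesangium markers 7 were above it, including Vim, Acta2 and Col3a1. Defining markers of loop, distal tubule and collecting duct (12 genes) and of leukocytes (7 genes) were below the median on every array. The mean level of the proximal tubule list was 2.95 to 2.99 on the monuron arrays and 2.96 to 2.98 on the DMSO arrays. That of the fibroblast list was 7.17 to 7.23 on the monuron arrays and 7.08 to 7.22 on the DMSO arrays. Of the markers tested, the keratin Krt8 (-0.27), the fibroblast-list factor Gata3 (-0.30) and the podocyte factor Wt1 (-0.75) passed as lower with monuron. Each lost its call without monuron replicate 2. Krt8 also lost it without monuron replicate 3, DMSO replicate 1 or DMSO replicate 2. Gata3 lost it with any 1 array left out (adjusted p of 0.061 to 0.15). The part of these genes in the results below was not tested. Another probe set of Gata3, above the median on all 6 arrays, gave 0.17. In bulk RNA, fewer cells of a kind and less RNA per cell cannot be told apart.

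At 6 h 1375 of the 8850 genes were called (15.5%), 636 higher with monuron (7.19%) and 739 lower (8.35%). Most differences were small. The median size among called genes was 0.41, and 89 of them reached a 2-fold difference, 43 higher and 46 lower. The largest higher values belonged to genes of amino acid stress (Chac1, Slc7a11, Trib3, Bcat1), to Inhbe, a subunit of activin E, and to the less known Purg, Zfp800, Nrbp2, Zc3h6 and Slc25a27. Among the largest lower values were genes of cholesterol supply (Tm7sf2, Mvd, Stard4, Hsd17b7, Mvk, Idi1, Insig1, Fdft1), with Medag and Bdh1. In 1374 of the 1375 called genes the monuron values did not overlap the DMSO values, which held for 38.5% of all genes tested. The count was 3078 (34.8%) with the replicate number as a block, and all 1375 were among them. It was 571 when all 18 cell arrays shared 1 estimate of the spread, and it fell to 274 and 428 when monuron replicate 2 or 3 was left out and to 701 without DMSO replicate 2. Higher and lower genes numbered 298 and 273 of 9042 in the 18-array fit. Of 8850 genes they numbered 139 and 135 without monuron replicate 2, and 239 and 189 without monuron replicate 3. Without DMSO replicate 2 they numbered 310 and 391. List counts under these fits, given below, stand beside these totals. When each array was centred on its median, 342 of 1202 called genes were higher (28.5%), against 46.3% without centring.

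**Figure D1:**
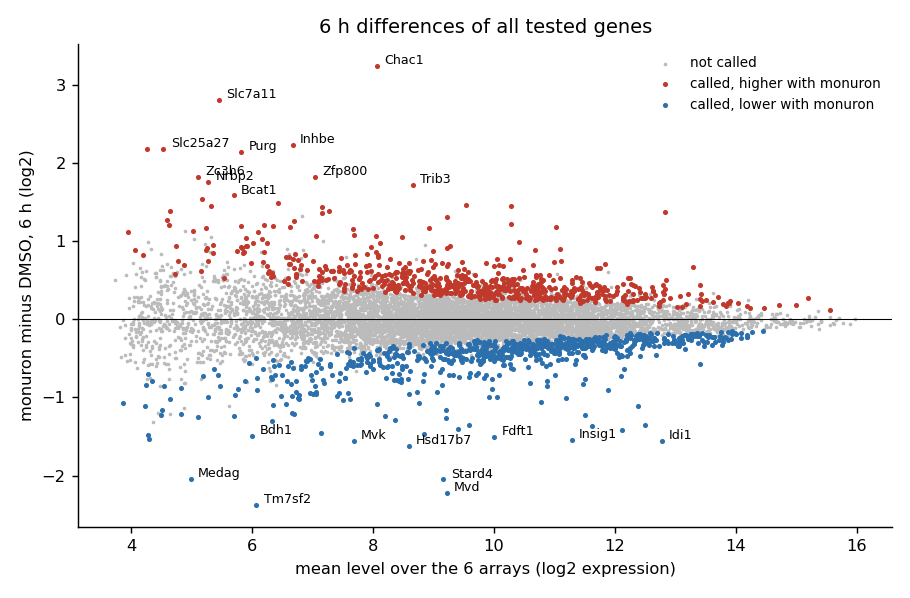
Monuron minus DMSO at 6 h (log2, vertical axis) against the mean level over the 6 arrays (log2 expression, horizontal axis), 1 point per tested gene. Red points are the 636 genes called higher, blue points the 739 called lower and grey points the rest. The labelled genes are the 10 named in each direction, from Chac1 at 3.25 to Tm7sf2 at -2.38.

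Gene lists gave the shape of the response. The highest shares of members called higher were in the ATF4 and amino acid list, the cytosolic aminoacyl-tRNA synthetases and the endoplasmic reticulum chaperones. The highest shares called lower were in cholesterol synthesis and uptake, fatty acid synthesis, glycolysis and hypoxia genes and proteasome subunits. Each list is given below by its counts and its median, and the median over all 8850 genes was -0.02. Of all 8850 genes 7.19% rose and 8.35% fell. The lists were drawn up with earlier results of these data known.

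**Figure D2:**
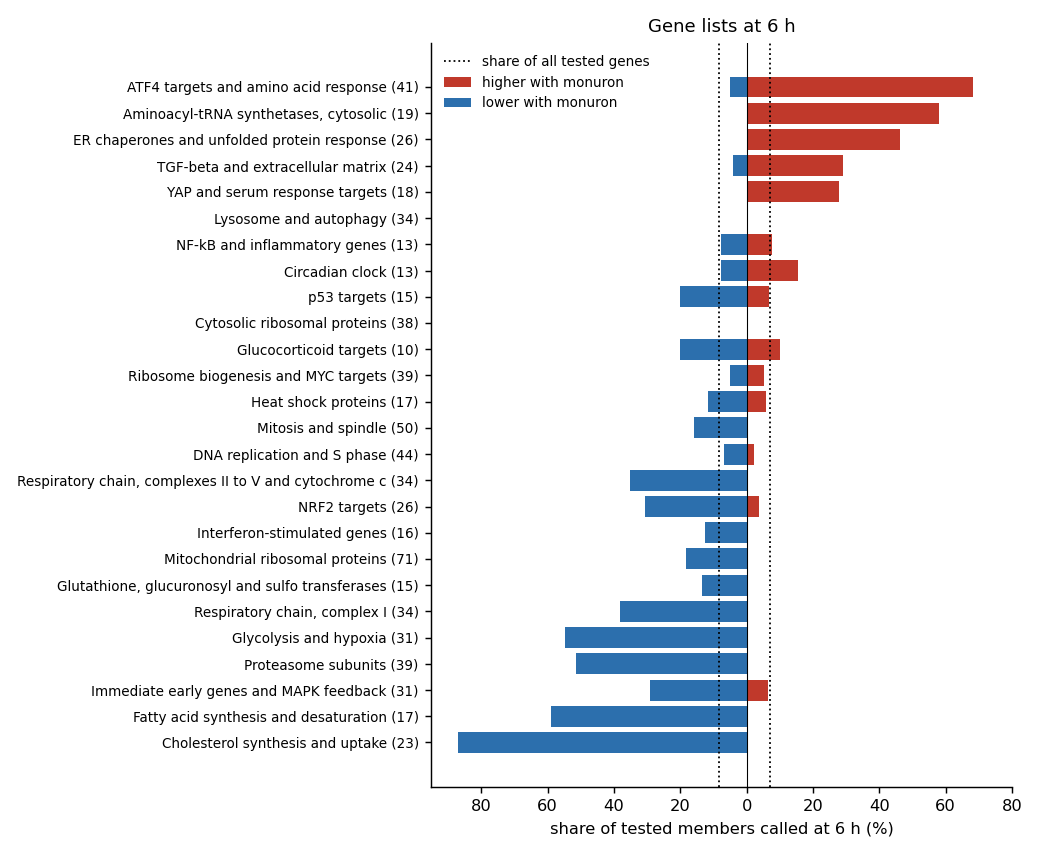
Share of the tested members of each gene list called higher (red, to the right) or lower (blue, to the left) with monuron at 6 h, in percent, for lists with at least 10 tested members and ordered by median difference. The number of tested members follows each name, and dotted lines mark the shares over all genes tested, 7.19% higher and 8.35% lower.

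Genes of the amino acid response were higher with monuron. Of the 41 genes tested from the ATF4 list, 28 rose and 2 fell, against 7.19% and 8.35% of all genes tested, and the list median was 0.50. The largest difference of any tested gene was that of Chac1, an enzyme that breaks down glutathione. Its level was 9.72, 9.92 and 9.43 in monuron-treated cells, against 6.55, 6.15 and 6.62 in DMSO cells, a difference of 3.25 (SE 0.16, adjusted p = 1.23e-05). The lowest monuron value thus lay far above the highest DMSO value. Slc7a11, the cystine importer that feeds glutathione synthesis, stood at 6.67, 7.09 and 6.80 in monuron-treated cells and at 4.03, 4.07 and 4.03, the level of the array medians, in DMSO cells. Its difference was 2.81 (SE 0.16, adjusted p = 1.81e-05).

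Atf4 itself, whose transcript is abundant in these cells, reached 13.55, 13.56 and 13.41 with monuron, against 12.30, 11.97 and 12.14 in DMSO, a difference of 1.37 (SE 0.08, adjusted p = 1.91e-05). Its partner Cebpg differed by 0.77, with 10.37, 10.50 and 10.43 in monuron-treated and 9.69, 9.66 and 9.63 in DMSO cells (adjusted p = 4.02e-04). The stress-induced factor Ddit3, also called CHOP, had 11.05, 10.95 and 10.72 in monuron-treated and 10.14, 9.74 and 9.88 in DMSO cells, a difference of 0.99 (SE 0.12, adjusted p = 0.00124). For each of these factors the groups were separate, and the 3 arrays of each group lay close together. Trib3, a pseudokinase that ATF4 and CHOP induce, had 9.72, 9.78 and 9.07 in monuron-treated and 8.31, 7.65 and 7.43 in DMSO cells, a difference of 1.73 (SE 0.24, adjusted p = 0.00269).

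Amino acid transport and metabolism followed the same direction. The cationic amino acid transporter Slc7a1 rose by 1.45, the large neutral transporter Slc7a5 by 1.17, its heavy chain Slc3a2 by 0.91 and the serine and alanine transporter Slc1a4 by 0.91. Among enzymes, Bcat1, which transfers the amino group of branched-chain amino acids, rose by 1.59, with 6.59, 6.69 and 6.20 in monuron-treated and 5.47, 4.82 and 4.41 in DMSO cells (SE 0.26, adjusted p = 0.00548). Mthfd2 of mitochondrial folate metabolism rose by 1.22, Cth of cysteine synthesis by 0.88 and Psat1 of serine synthesis by 0.50. Asns, the asparagine synthetase and a standard ATF4 target, had 12.46, 12.56 and 12.41 in monuron-treated and 12.02, 11.94 and 11.87 in DMSO cells, a smaller difference of 0.53 (SE 0.06, adjusted p = 0.00120). The 2 members that fell were Txnip, an inhibitor of glucose uptake, by 0.54, and Ddit4, an inhibitor of mTORC1, by 0.43 (adjusted p = 0.0277, and up to 0.128 with 1 array left out). Ddit4 is also a HIF target and stood in the glycolysis and hypoxia list as well. Other members did not pass the test, among them Atf3 with a difference of 0.36 and adjusted p = 0.275. The number that rose was 8 in the fit of all 18 cell arrays, where Slc7a11, Trib3, Bcat1, Ddit3 and Asns were no longer called, and 19 without monuron replicate 2. Cebpg was not called when the probe sets of a gene were averaged (adjusted p = 0.14). Its other probe set, above the median on all 6 arrays, gave 1.25.

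**Figure D3:**
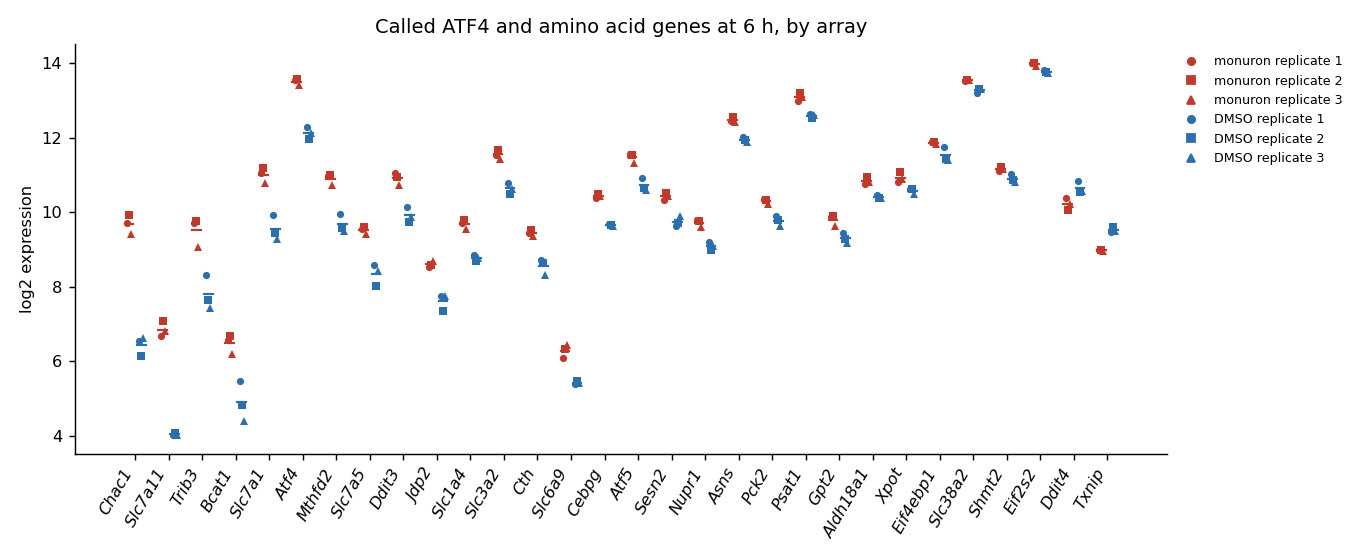
Level in each array (log2 expression, vertical axis) of the 30 called members of the ATF4 and amino acid list, ordered by difference, with the 3 monuron arrays (red) left of the 3 DMSO arrays (blue). Horizontal bars are group means. Chac1 and Slc7a11 show the widest gaps, and Ddit4 and Txnip at the right end are the 2 members lower with monuron.

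The cytosolic aminoacyl-tRNA synthetases, which load amino acids onto tRNAs, were changed in part. Of 19 tested members 11 rose and the other 8 did not pass the test, with a median of 0.35. Cars1, for cysteine, had 9.79, 10.42 and 10.59 in monuron-treated cells, against 8.44, 8.98 and 8.99 in DMSO cells, a difference of 1.46 (SE 0.21, adjusted p = 0.00317). In both groups replicate 1 was the lowest. Aars1, for alanine, differed by 0.71 (12.21, 12.23 and 12.13 in monuron-treated, 11.45, 11.43 and 11.57 in DMSO cells, adjusted p = 2.03e-04), Mars1, for methionine, by 0.66 and Nars1, for asparagine, by 0.45. Yars1, for tyrosine, rose by 0.53 and Iars1, for isoleucine, by 0.66. Those for histidine, valine, arginine, lysine and glutamine (Hars1, Vars1, Rars1, Kars1 and Qars1) had differences from -0.08 to -0.03 and were not called. In the fit of 18 arrays 2 members rose, and Mars1 was not called when its probe sets were averaged (adjusted p = 0.095). The other Mars1 probe set, above the median on all 6 arrays, gave 0.59.

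The promoters of these genes were searched for the letters TGATGCAA on both strands, a form of the composite C/EBP-ATF site that ATF4 and its partners bind. The windows ran from 250 bases before to 50 bases after each RefSeq start on build GRCr8, and 7512 tested genes had one. A gene counted as matched if any of its windows held the letters. That held for 0.827% of all 27457 genes with a window. Of the genes with a window, the letters were found in 7 of 17 synthetases (41.2%), 6 of 35 of the ATF4 list (17.1%) and 0 of 19 of the cholesterol list. Among tested genes they occurred in 2.87% of those higher at 6 h, 0.317% of those lower and 0.487% of those not called. A match is a description of the sequence and not a measured site. The stretches below show the match in capitals, as TGATGCAA or its reverse complement TTGCATCA, for genes of both lists that rose, on the strand of the gene. They come from chr3:126795924-126796011 (plus strand) for Chac1, chr6:110993535-110993622 (plus) for the leucine zipper repressor Jdp2, chr1:190645909-190645996 (minus) for the stress gene Nupr1, chr19:55908330-55908417 (plus) for Aars1, chr7:65023723-65023810 (minus) for Mars1, chr18:60275749-60275836 (minus) for Nars1, chr1:208225320-208225392 (minus) for Cars1 and chr17:15193629-15193716 (minus) for Iars1.
Chac1: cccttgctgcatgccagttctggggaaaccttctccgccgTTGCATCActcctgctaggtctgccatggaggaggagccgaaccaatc
Jdp2: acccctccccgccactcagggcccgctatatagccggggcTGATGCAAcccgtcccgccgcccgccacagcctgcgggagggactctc
Nupr1: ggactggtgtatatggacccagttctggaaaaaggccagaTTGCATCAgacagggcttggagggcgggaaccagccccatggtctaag
Aars1: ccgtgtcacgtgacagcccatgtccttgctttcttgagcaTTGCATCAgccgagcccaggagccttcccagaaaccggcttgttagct
Mars1: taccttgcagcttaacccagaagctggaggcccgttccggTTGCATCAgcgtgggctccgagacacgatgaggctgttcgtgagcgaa
Nars1: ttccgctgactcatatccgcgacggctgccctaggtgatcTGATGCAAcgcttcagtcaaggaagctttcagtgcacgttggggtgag
Cars1: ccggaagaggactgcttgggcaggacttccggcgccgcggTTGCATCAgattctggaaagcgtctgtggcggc
Iars1: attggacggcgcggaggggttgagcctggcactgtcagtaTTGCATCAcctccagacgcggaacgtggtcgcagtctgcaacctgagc
The match began 167 bases before the start in Chac1, 112 before it in Aars1, 55 in Nupr1, 24 in Iars1, 17 in Mars1, 16 in Jdp2 and 14 in Nars1, and 18 bases after the start in Cars1. With monuron Jdp2 had risen by 0.98 and Nupr1 by 0.63 (adjusted p = 0.00232 and 0.00368).

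Other genes with large higher values had no place in these lists. Inhbe had 7.96, 7.87 and 7.55 in monuron-treated cells, against 5.33, 5.96 and 5.38 in DMSO cells (difference 2.23, SE 0.19, adjusted p = 1.57e-04). Purg, a purine-rich element binding protein, had 7.03, 6.88 and 6.79 in monuron-treated and 4.87, 4.54 and 4.84 in DMSO cells (difference 2.15, adjusted p = 5.41e-05). The zinc finger gene Zfp800 rose by 1.83, with 7.97, 8.09 and 7.81 in monuron-treated and 6.01, 6.14 and 6.24 in DMSO cells. In these genes every monuron array lay well above every DMSO array. Nrbp2, a pseudokinase, rose by 1.77, with 6.36, 5.95 and 6.16 in monuron-treated and 4.65, 4.40 and 4.12 in DMSO cells. Slc25a27, a mitochondrial uncoupling protein, differed by 2.18, but its DMSO values of 3.18, 3.62 and 3.54 were below the array medians, and with low values set to the median the difference was 1.62. In the fit of 18 arrays Inhbe was not called.

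Genes of the unfolded protein response were partly higher, with small differences. Of 26 tested genes of chaperones and unfolded protein response 12 rose and the rest did not pass, with a median of 0.17. Herpud1, which works in degradation of misfolded proteins, had 11.64, 11.77 and 11.47 in monuron-treated and 10.60, 10.35 and 10.38 in DMSO cells, a difference of 1.18 (SE 0.10, adjusted p = 1.22e-04). Herpud1 is also a target of ATF4 and held TGATGCAA in its window. The factor Xbp1 rose by 0.54, the co-chaperone Dnajb9 by 0.45 and Edem1, which leads misfolded glycoproteins to degradation, by 0.39. Hspa5, the main chaperone of the compartment, had 15.35, 15.40 and 15.45 in monuron-treated and 15.25, 15.32 and 15.31 in DMSO cells, a difference of 0.11 (adjusted p = 0.0703, and 0.00971 with the replicate block), and Hyou1, Calr and Creld2 differed by 0.08, 0.04 and 0.01. With the replicate block 18 members rose and 1 fell, against 15.7% and 19.1% of all genes in that fit. The number that rose was 4 with arrays centred on their medians and 1 in the fit of 18 arrays. It was 2 without monuron replicate 3, 3 without monuron replicate 2 and 4 without DMSO replicate 2. Xbp1 and Edem1 were not called without monuron replicate 2 or 3 (adjusted p of 0.051 to 0.065).

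Cholesterol synthesis and uptake had the highest share of called members of the gene lists described. Of 23 tested members 20 fell with monuron, against 8.35% of all genes tested, and the median was -1.35. Among the members that fell were enzymes of early and of late steps of sterol synthesis. Acat2, which makes acetoacetyl-CoA, had 10.98, 10.89 and 10.79 in monuron-treated and 12.10, 12.12 and 12.12 in DMSO cells, a difference of -1.23 (SE 0.07, adjusted p = 1.42e-05). Mevalonate kinase Mvk differed by -1.56, with 7.24, 6.55 and 6.91 in monuron-treated and 8.68, 8.44 and 8.26 in DMSO cells. Mvd, the mevalonate diphosphate decarboxylase, had 8.26, 7.86 and 8.20 in monuron-treated cells, against 10.63, 10.33 and 10.03 in DMSO cells, a difference of -2.22 (SE 0.16, adjusted p = 4.50e-05). In each of these genes every monuron array lay below every DMSO array. Idi1, the isopentenyl diphosphate isomerase, had 12.00, 11.84 and 12.16 in monuron-treated and 13.54, 13.47 and 13.66 in DMSO cells (difference -1.56, SE 0.08, adjusted p = 1.23e-05), and its other probe set gave -1.91. Fdps, which makes farnesyl diphosphate, differed by -1.35, with 11.93, 11.70 and 11.85 in monuron-treated and 13.26, 13.14 and 13.12 in DMSO cells.

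In the sterol branch, the squalene synthase Fdft1 differed by -1.50, the squalene epoxidase Sqle by -1.37 and the lanosterol synthase Lss by -1.29. Sqle had 10.96, 10.80 and 11.05 in monuron-treated and 12.38, 12.32 and 12.22 in DMSO cells. Tm7sf2, a sterol reductase, had the largest fall of any gene, to 5.75, 4.45 and 4.45 in monuron-treated cells, against 7.74, 7.24 and 6.80 in DMSO cells (difference -2.38, SE 0.35, adjusted p = 0.00360). Its spread was wide, and the replicate 1 array was the highest in both groups. Hsd17b7 differed by -1.62, Nsdhl by -1.41, Msmo1 by -1.42, Cyp51 by -1.11, Ebp by -0.71, Sc5d by -0.83 and Dhcr7, which makes cholesterol in the last step, by -1.35. Pmvk, the phosphomevalonate kinase, did not pass the test with -0.52 (adjusted p = 0.0661, and 0.00245 with the replicate block). Stard4, which carries cholesterol between membranes, had 8.32, 7.93 and 8.17 in monuron-treated and 10.41, 10.05 and 10.11 in DMSO cells, a difference of -2.05, while another probe set of the gene gave -1.20.

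Regulators of the pathway were measured as well. Insig1, which retains SREBP and is itself an SREBP target, had 10.33, 10.38 and 10.83 in monuron-treated and 12.00, 12.02 and 12.15 in DMSO cells, a difference of -1.54 (SE 0.12, adjusted p = 9.89e-05). Srebf2, the SREBP of cholesterol genes, fell by 0.56, with 8.98, 8.95 and 9.10 in monuron-treated and 9.57, 9.55 and 9.59 in DMSO cells (adjusted p = 0.00390), and was not called when its probe sets were averaged (adjusted p = 0.062). The other Srebf2 probe set lay below the median on every array. Insig2 differed by -0.31 (adjusted p = 0.0362, and up to 0.133 with 1 array left out). Srebf1, the SREBP of fatty acid genes, had 7.23, 7.07 and 7.27 in monuron-treated and 7.44, 7.39 and 7.26 in DMSO cells, values that overlap, with a difference of -0.17 (adjusted p = 0.328). Scap, the sterol-sensing escort of SREBP, had 0.10. Leaving out any 1 array left 19 or 20 members lower. In the fit of 18 arrays 10 were lower, and Idi1, Mvk, Hsd17b7, Lss, Cyp51, Acat2 and Dhcr7 were among those no longer called.

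**Figure D4:**
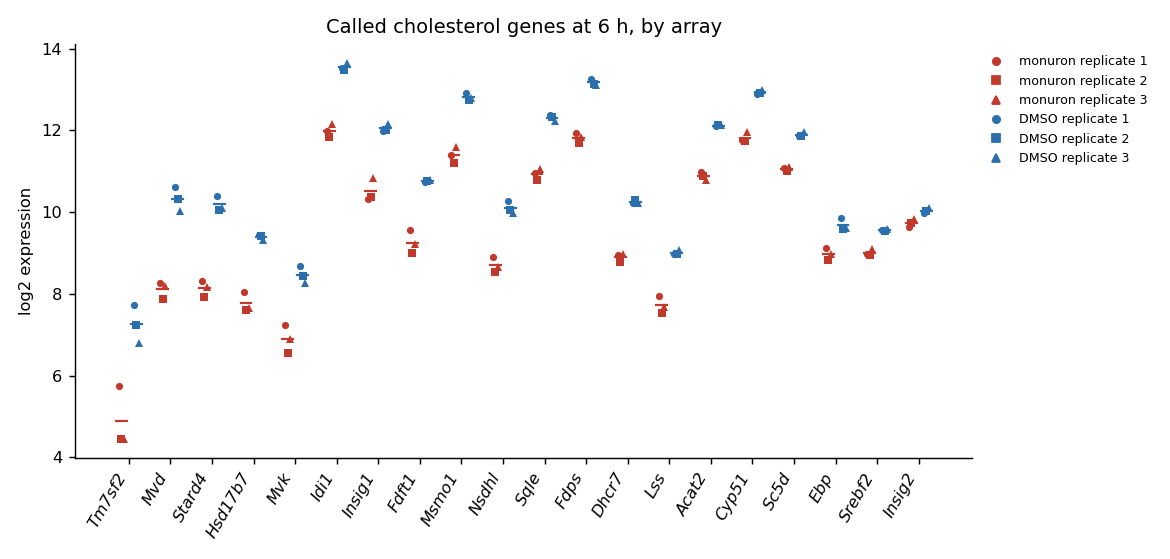
Level in each array (log2 expression, vertical axis) of the 20 called members of the cholesterol list, ordered by difference, with the 3 monuron arrays (red) left of the 3 DMSO arrays (blue) and bars at the group means. The gap is widest for Tm7sf2, at -2.38, and narrowest for Insig2, at -0.31.

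Fatty acid synthesis fell in part. Of 17 tested members 10 fell and the other 7 did not pass, with a median of -0.35. Elovl6, which lengthens palmitate, had 7.88, 7.93 and 8.51 in monuron-treated and 9.55, 9.63 and 9.53 in DMSO cells, a difference of -1.47 (SE 0.16, adjusted p = 6.55e-04). Fatty acid synthase, Fasn, had 10.43, 10.06 and 10.24 in monuron-treated and 11.36, 11.32 and 11.23 in DMSO cells, a difference of -1.06 (SE 0.10, adjusted p = 2.36e-04). Acly, which makes cytosolic acetyl-CoA from citrate, fell by 0.91, and the acetyl-CoA synthetase Acss2 by 0.96. The desaturases Scd2 and Fads1 both fell by 0.72. Acaca, the acetyl-CoA carboxylase, had 10.14, 9.91 and 9.96 in monuron-treated and 10.11, 10.26 and 10.17 in DMSO cells and was not called (-0.18, adjusted p = 0.186). Bdh1, a ketone body dehydrogenase outside the list, fell to 5.24, 5.35 and 5.20 in monuron-treated cells, against 7.24, 6.55 and 6.46 in DMSO cells (-1.49, adjusted p = 0.00278). The number lower in the list was 4 in the fit of 18 arrays, in which Fasn, Elovl6 and Acly were still called. Scd2 was not called when its probe sets were averaged (adjusted p = 0.089). Its other probe set above the median gave -0.51, and those at -0.26 and -0.03 lay below it on every array.

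The cholesterol promoters were searched for TCACNCCAC, a form of the sterol regulatory element, and for CCAAT, the NF-Y box that often stands beside it, on both strands. Of the genes with a window, TCACNCCAC was found in 0 of 19 cholesterol genes and in 1.25% of all genes. CCAAT was found in 15 of 19 cholesterol genes (78.9%), 10 of 14 fatty acid genes (71.4%) and 39.6% of all genes. It was also found in 18 of 20 genes (90%) of the chaperone list, whose members rose or did not pass.

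Genes of glucose use and of the hypoxia response were lower. Of 31 tested members 17 fell and the other 14 did not pass, with a median of -0.23. Bnip3, a mitophagy receptor and HIF target, had 10.81, 10.67 and 10.60 in monuron-treated cells, against 11.80, 11.67 and 11.62 in DMSO cells, a difference of -1.01 (SE 0.08, adjusted p = 9.55e-05). Slc2a1, the glucose transporter GLUT1, had 9.61, 9.39 and 9.55 in monuron-treated and 10.52, 10.49 and 10.21 in DMSO cells, a difference of -0.89 (SE 0.10, adjusted p = 0.00116). Pdk1, which inhibits pyruvate dehydrogenase, fell by 0.71, with 9.78, 9.75 and 9.65 in monuron-treated and 10.56, 10.38 and 10.37 in DMSO cells. In each of them the highest monuron value was below the lowest DMSO value. Of the phosphofructokinase genes, Pfkfb4 differed by -1.30 and the liver-type Pfkl by -1.01. Higd1a fell by 0.57, the HIF hydroxylase Egln1 by 0.53 and Ankrd37 by 0.93.

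Differences were small in some of the most abundant glycolytic genes. Ldha, the lactate dehydrogenase, had 14.08, 14.06 and 14.08 in monuron-treated and 14.32, 14.31 and 14.26 in DMSO cells, a difference of -0.23 (adjusted p = 0.00565), and Pgk1 differed by -0.05 (adjusted p = 0.323). Vegfa, an angiogenic HIF target, had 9.17, 9.35 and 9.17 in monuron-treated and 9.05, 9.02 and 8.98 in DMSO cells and did not pass (0.21, adjusted p = 0.135). Hif1a itself had 0.26 (adjusted p = 0.0559, and 0.00305 with the replicate block). Hk2, the inducible hexokinase, differed by -1.11 with overlapping values of 4.03, 5.43 and 5.75 in monuron-treated and 5.59, 6.86 and 6.08 in DMSO cells (adjusted p = 0.107, and 0.00430 with the block). The number lower was 5 in the fit of 18 arrays, where Slc2a1, Pdk1, Pfkfb4, Higd1a and Ldha were not called, and 10 without monuron replicate 2 or 3.

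TACGTG, a form of the site that HIF binds, was found on either strand in 11 of 29 genes of this list with a window (37.9%). It was found in 3.78% of all genes with a window, 4.44% of those lower at 6 h and 4.98% of those higher. It was found in 5 of the members that fell, of which the windows of Egln1 (chr19:69804635-69804720, minus strand) and Ankrd37 (chr16:53001257-53001315, plus strand) are shown in part with the match in capitals.
Egln1: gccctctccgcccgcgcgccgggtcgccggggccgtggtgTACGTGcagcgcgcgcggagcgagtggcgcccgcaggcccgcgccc
Ankrd37: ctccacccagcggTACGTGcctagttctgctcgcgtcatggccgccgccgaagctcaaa
Egln1 had 9.31, 9.35 and 9.40 in monuron-treated and 9.99, 9.87 and 9.80 in DMSO cells, and Ankrd37 had 8.86, 8.42 and 8.49 in monuron-treated and 9.80, 9.41 and 9.35 in DMSO cells (adjusted p = 0.00480 and 0.00517). The groups did not overlap in either gene.

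Subunits of large complexes had small differences, and those called were all lower with monuron. Of 39 tested proteasome subunits 20 fell and the other 19 did not pass, with a median of -0.24 and 31 lower with the replicate block, where 19.1% of all genes were. Psmd8 of the regulatory particle had 12.31, 12.21 and 12.27 in monuron-treated and 12.69, 12.58 and 12.62 in DMSO cells, a difference of -0.37 (SE 0.06, adjusted p = 0.00392). Psmb1 of the catalytic core had 13.64, 13.57 and 13.58 in monuron-treated and 13.87, 13.83 and 13.86 in DMSO cells, a difference of -0.26. In both genes the groups did not overlap. The number of proteasome subunits lower was 14 in the fit of 18 arrays, where 273 of all 9042 genes were lower. It was 5, 8 and 13 without monuron replicate 2, monuron replicate 3 and DMSO replicate 2. Of all 8850 genes 135, 189 and 391 were lower in these fits.

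Of 34 tested subunits of respiratory complex I, which passes electrons from NADH, 13 fell, against 8.35% of all genes tested. The list median was -0.20, with a range from -0.40 to -0.02. Ndufv3 had 10.51, 10.47 and 10.44 in monuron-treated and 10.93, 10.80 and 10.84 in DMSO cells, a difference of -0.39 (adjusted p = 0.00840). Of 34 subunits of the other complexes and cytochrome c 12 fell, with a median of -0.16, and of 71 mitochondrial ribosomal proteins 13 fell, with a median of -0.17. Cox6a1 of complex IV differed by -0.22 and Mrpl33 of the large mitochondrial ribosomal subunit by -0.44, and neither was called without monuron replicate 2 or 3. With the replicate block 27, 23 and 34 members of these 3 lists were lower, against 19.1% of all genes. Without monuron replicate 2 the counts of the 3 lists were 0, 0 and 1 and without monuron replicate 3 they were 1, 0 and 1, by limma. In these fits 135 and 189 of all 8850 genes were lower. With all 6 arrays 24, 22 and 26 members were lower at an unadjusted p below 0.05, which 2953 of all 8850 genes passed in either direction. Without DMSO replicate 2 the counts by limma were 5, 9 and 4, and without DMSO replicate 1 they were 6, 7 and 9. In the fit of 18 arrays they were 3, 5 and 6, and complex I had 8 with quantile normalization. Ndufv3 was not called without monuron replicate 2 (adjusted p = 0.054) or when its probe sets were averaged (0.13). Cytosolic ribosomal proteins had a median of -0.04 over 38 tested members. By limma 0 of them were called, 7 were lower at an unadjusted p below 0.05 and 8 were lower with the replicate block, a share near the 19.1% of all genes.

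Immediate early genes, which serum and growth factors switch on within minutes through MAP kinases, were lower in part. Of 31 tested members 9 fell and 2 rose, with a median of -0.26. Junb, a subunit of AP-1, had 9.26, 9.10 and 9.42 in monuron-treated and 9.90, 10.03 and 9.92 in DMSO cells, a difference of -0.69 (SE 0.10, adjusted p = 0.00319). Dusp1, a MAP kinase phosphatase, had 11.00, 10.99 and 11.19 in monuron-treated and 11.71, 11.66 and 11.51 in DMSO cells, a difference of -0.57 (adjusted p = 0.00332). Phlda1 differed by -1.49, or -0.95 with values below the array median set to it, since its monuron values of 3.49, 3.15 and 3.97 lay at or below the medians. Egr1, a first responder to serum, had overlapping values of 9.90, 10.08 and 10.35 in monuron-treated and 9.69, 9.94 and 10.36 in DMSO cells (adjusted p = 0.671). The 2 that rose were Myc, by 0.65, with 9.01, 9.27 and 9.06 in monuron-treated and 8.83, 8.54 and 8.04 in DMSO cells (adjusted p = 0.0369), and Ccn1 by 0.45. Myc was not called without any 1 of 5 of the 6 arrays, the first DMSO array being the exception, and Ccn1 was not called without monuron replicate 2 or 3. The number lower was 4 in the fit of 18 arrays, 4 without monuron replicate 2 or 3 and 5 without DMSO replicate 2. With the replicate block 13 members of the list were lower and 3 higher, against 19.1% and 15.7% of all genes in that fit.

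Oxidant and xenobiotic defence did not rise as a group. Of 26 tested NRF2 targets, the genes of the main oxidant response, 8 fell and 1 rose, with a median of -0.16. The member that rose was Slc7a11, which ATF4 also regulates and which stands in both lists. Nqo1, the quinone reductase, had 13.03, 13.04 and 13.17 in monuron-treated and 13.29, 13.25 and 13.45 in DMSO cells, a difference of -0.25 (adjusted p = 0.0294), and was not called without monuron replicate 1 or 2 or DMSO replicate 3 (adjusted p of 0.064 to 0.13). Hmox1, heme oxygenase, had 7.61, 7.62 and 7.46 in monuron-treated and 8.01, 7.35 and 7.79 in DMSO cells, which overlap (-0.15, adjusted p = 0.545). With the replicate block 14 NRF2 targets were lower and 3 higher, against 19.1% and 15.7% of all genes in that fit. In the fit of 18 arrays 2 were lower. The number lower was 1 without monuron replicate 2, 3 without monuron replicate 3 and 4 without DMSO replicate 2. Of all 8850 genes 135, 189 and 391 were lower in these last fits. Mgst1, a microsomal glutathione transferase, fell by 1.53, or by 0.99 with low values set to the median, with 3.80, 3.40 and 3.41 in monuron-treated and 5.48, 5.11 and 4.61 in DMSO cells. Of 6 tested genes of the aryl hydrocarbon receptor pathway, Cyp1b1 differed by -0.99 (4.49, 4.76 and 5.07 in monuron-treated, 5.75, 5.76 and 5.78 in DMSO cells, adjusted p = 0.00903), Nqo1 fell and Tiparp rose by 0.32. Without monuron replicate 2 Cyp1b1 had an adjusted p of 0.051 and Tiparp 0.12. Cyp1a1 lay below the filter and was not tested.

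Of 15 tested p53 targets, the genes of the DNA damage response, 3 fell and 1 rose, against 8.35% and 7.19% of all genes tested. Cdkn1a, the cell cycle inhibitor p21, had 12.11, 11.95 and 12.03 in monuron-treated and 12.69, 12.34 and 12.36 in DMSO cells, a difference of -0.43 (adjusted p = 0.0173), and Mdm2, the ligase that degrades p53, had 11.80, 12.30 and 12.42 in monuron-treated and 11.92, 12.32 and 12.25 in DMSO cells, values that overlap (0.01, adjusted p = 0.974). The member that rose, Sesn2, is also an ATF4 target. Cdkn1a was not called without monuron replicate 2 or 3 (adjusted p = 0.093 and 0.067). Without either of these arrays limma called 0 p53 targets as lower, where 4 were lower at an unadjusted p below 0.05 with all arrays, and without DMSO replicate 2 it called 1. Without DMSO replicate 3 the number that rose was 2. Of 44 genes of DNA replication 3 fell and 1 rose, and of 50 mitotic genes 8 fell, with medians of -0.09 and -0.08. The shares over all genes tested were 8.35% lower and 7.19% higher. With the replicate block replication genes had 11 lower and 4 higher, and mitotic genes 12 lower and 8 higher. Over all genes that fit had 19.1% lower and 15.7% higher. Without monuron replicate 2 or 3 limma called 0 mitotic genes, where 11 were lower at an unadjusted p below 0.05 with all arrays, and without DMSO replicates 1, 2 and 3 it called 3, 2 and 5 lower. The replication genes lower were 1 without monuron replicate 2, monuron replicate 3 or DMSO replicate 2. Of all 8850 genes 135, 189 and 391 were lower in these fits. With all arrays 2953 of them had an unadjusted p below 0.05 in either direction. The lowest adjusted p among the replication genes was that of Rpa3, a subunit of the single-strand binding protein, with 12.37, 12.47 and 12.50 in monuron-treated and 12.96, 12.92 and 12.85 in DMSO cells (-0.46, adjusted p = 0.00140).

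The smaller lists stand beside shares of 7.19% higher and 8.35% lower over all genes tested. Of 18 tested YAP and serum response targets 5 rose. The lowest adjusted p was that of the matricellular Ccn2, with 15.26, 15.36 and 15.35 in monuron-treated and 15.07, 15.04 and 15.03 in DMSO cells (0.27, adjusted p = 0.00230). The number that rose was 1 without monuron replicate 2 and likewise without monuron replicate 3. Of 24 matrix and TGF-beta genes 7 rose and 1 fell. Timp3, an inhibitor of matrix proteases, had 9.71, 9.95 and 9.88 in monuron-treated and 9.04, 9.19 and 9.11 in DMSO cells (0.74, SE 0.09, adjusted p = 0.00180), and 3 rose with centred arrays. The matrix genes that rose numbered 3, 2, 2 and 3 without monuron replicates 1, 2 and 3 and DMSO replicate 2, each in turn. Of 17 heat shock genes 2 fell, Hspb8 by 0.81 and Bag3 by 0.33, and Hspa9 rose by 0.27. With the replicate block 6 heat shock genes fell and 1 rose, against 19.1% and 15.7% of all genes in that fit. Of 13 clock genes Nr1d2 rose by 0.60 and Clock by 0.41, while Tef had -0.79 by its brightest probe set and 0.61 and 0.30 by 2 others. Nr1d2, Clock, Bag3 and Hspa9 were not called without monuron replicate 2 (adjusted p of 0.051 to 0.13). Of 10 tested glucocorticoid targets 2 fell and 1 rose. The glutamine synthetase Glul fell by 0.50, with 10.23, 10.17 and 10.38 in monuron-treated and 10.74, 10.83 and 10.72 in DMSO cells. Klf9 rose by 0.27 (adjusted p = 0.0487) and was not called with any 1 array left out (adjusted p of 0.059 to 0.18). Of 34 lysosome and autophagy genes limma called 0, against 15.5% of all genes tested. At an unadjusted p below 0.05, 3 were higher and 5 lower, where 2953 of all 8850 genes passed in either direction. Under the replicate block 4 were higher and 6 lower, against 15.7% and 19.1% of all genes.

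Whether the differences at 6 h persisted was tested against the 24 h arrays of the same line, 3 labelled monuron and 3 labelled DMSO, which share no array with those at 6 h. At 24 h 3189 of the 8850 genes were called (36%), 1586 higher (17.9%) and 1603 lower (18.1%), and 151 of them by 2-fold or more. Of the 636 genes higher at 6 h, 272 (42.8%) were also higher at 24 h, which is 17.2% of the genes higher at 24 h, and 32 (5.03%) were lower. Of the 739 lower at 6 h, 330 (44.7%) were also lower at 24 h, which is 20.6% of the genes lower then, and 43 (5.82%) were higher. The change of the difference itself, 24 h minus 6 h, was called for 1642 of 8959 genes (18.3%), 872 with a more positive difference at 24 h (9.73%) and 770 with a more negative one (8.59%). It was called for 110 genes in the fit of 18 arrays. Left-out arrays gave 991 genes without the first DMSO array at 24 h, 1027 without monuron replicate 2 at 24 h and 1078 without monuron replicate 2 at 6 h.

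The cholesterol genes were low at 6 h and much less so at 24 h. Their median difference was -0.18 at 24 h and -1.35 at 6 h, with 12 lower and 1 higher at 24 h (18.1% and 17.9% of all genes), and in 19 of 23 the difference was called more positive at 24 h. Dhcr7 had a difference of 0.35 at 24 h and -1.35 at 6 h, a change of 1.70 (SE 0.10, adjusted p = 1.37e-07). For Insig1 it was -0.05 at 24 h and -1.54 at 6 h (change 1.49), for Mvd -0.40 at 24 h and -2.22 at 6 h (change 1.82), and for Fdps -0.11 at 24 h and -1.35 at 6 h (change 1.24). Levels in DMSO moved as well. From 6 h to 24 h mean Dhcr7 went from 8.91 to 11.52 with monuron and from 10.25 to 11.16 in DMSO. Mvd went from 8.11 to 10.45 with monuron and from 10.33 to 10.85 in DMSO. Tm7sf2 went from 4.88 to 11.11 with monuron and from 7.26 to 11.58 in DMSO. Sqle remained lower, by -0.68 at 24 h against -1.37 at 6 h. Srebf2 had -0.58 at 24 h and -0.56 at 6 h, with no called change.

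In the ATF4 list 38 of 41 members were higher at 24 h, where 17.9% of all genes were, and 28 at 6 h, where 7.19% were. The list median was 0.83 at 24 h and 0.50 at 6 h. The change was called more positive for 18 members and more negative for 3. The differences of Atf4 itself and Chac1 were smaller at 24 h, 0.78 against 1.37 and 2.45 against 3.25 at 6 h. Their monuron levels were not lower at 24 h, and their DMSO levels were higher. From 6 h to 24 h mean Atf4 went from 13.51 to 13.60 with monuron and from 12.13 to 12.82 in DMSO. Chac1 went from 9.69 to 10.82 with monuron and from 6.44 to 8.37 in DMSO. Asns differed by 1.57 at 24 h and 0.53 at 6 h, Trib3 by 2.87 at 24 h and 1.73 at 6 h, Ddit3 by 1.80 at 24 h and 0.99 at 6 h, and Bcat1 by 3.58 at 24 h and 1.59 at 6 h. From 6 h to 24 h mean Asns went from 12.47 to 12.54 with monuron and from 11.94 to 10.97 in DMSO. Ddit3 went from 10.91 to 11.05 with monuron and from 9.92 to 9.25 in DMSO. Bcat1 went from 6.49 to 7.05 with monuron and from 4.90 to 3.47 in DMSO. Trib3 went from 9.52 to 10.69 with monuron and from 7.79 to 7.82 in DMSO. Slc7a11 had 2.64 at 24 h and 2.81 at 6 h (adjusted p of the change 0.75). Nrbp2, higher by 1.77 at 6 h, was lower by 0.29 at 24 h. Its mean went from 6.16 at 6 h to 7.83 at 24 h with monuron and from 4.39 to 8.13 in DMSO.

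Hypoxia genes took different courses. Slc2a1 differed by 0.27 at 24 h and -0.89 at 6 h (change 1.16, adjusted p = 4.34e-05) and Bnip3 by 0.0046 at 24 h and -1.01 at 6 h, while Ankrd37 stayed lower, by -1.03 at 24 h and -0.93 at 6 h, and Ldha fell further, by 0.66 at 24 h against 0.23 at 6 h. From 6 h to 24 h mean Slc2a1 went from 9.52 to 10.45 with monuron and from 10.40 to 10.18 in DMSO. Bnip3 went from 10.69 to 11.13 with monuron and from 11.70 to 11.12 in DMSO. Replication and mitotic genes, little changed at 6 h, had 24 of 44 and 29 of 50 members lower at 24 h, against 18.1% of all genes tested. Ifi27l2b, an interferon-inducible family member, had the largest change, with a difference of 3.93 at 24 h and -0.20 at 6 h, where it was not called. Its levels at 24 h were 11.55, 11.46 and 11.52 with monuron and 7.54, 7.80 and 7.40 with DMSO.

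**Figure D5:**
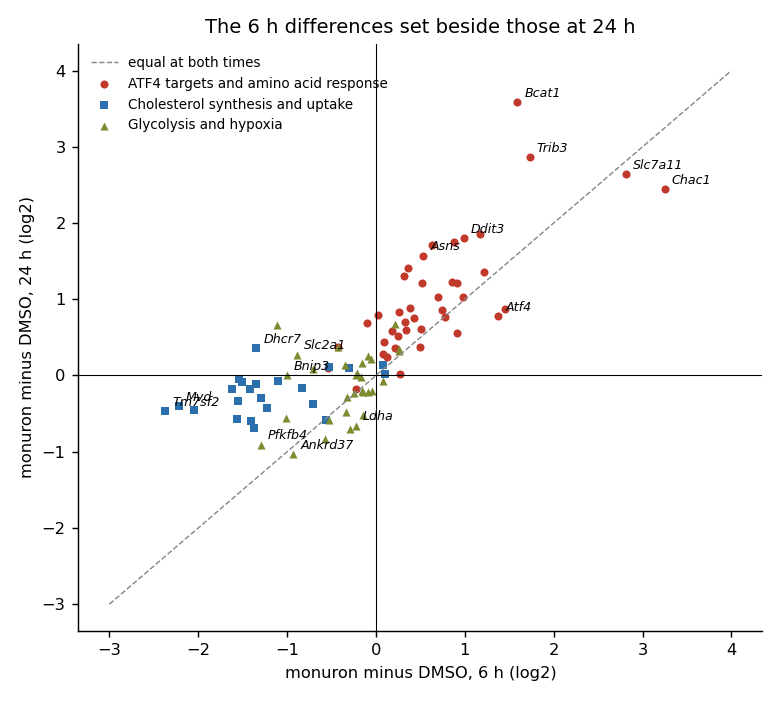
Monuron minus DMSO at 24 h (log2, vertical axis) against the same at 6 h (log2, horizontal axis) for the tested members of the ATF4 list (red circles), the cholesterol list (blue squares) and the glycolysis and hypoxia list (green triangles). The dashed line marks equal differences. The 23 cholesterol genes have a median of -0.18 on the 24 h axis, where 12 were called lower. On the 6 h axis their median is -1.35 and their range -2.38 to 0.10. Bcat1 and Trib3 lie above the line at 3.58 and 2.87.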

How the data were processed

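Total RNA of NRK-52E cells was labelled and hybridised to Affymetrix arrays, 1 array per sample. The deposited values are log2 expression per probe set, made by the authors with GCRMA per the submitters' processing notes, which corrects background, equalises the arrays' distributions and summarises probes. Its version is not given in the sources used here. Arrays have no read depth, and 3 arrays per group limit the precision.

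Among 31099 probe sets were 57 controls, which were not used, 20826 with 1 gene symbol, 436 with several and 9780 with none, for 14217 genes. The brightest probe set stood for a gene, and it was tested if above its array's median on at least 3 arrays. Groups were compared with limma 3.58.1 in R 4.3.3 (lmFit, eBayes with trend, two-sided, Benjamini-Hochberg) on the 6 arrays at 6 h, likewise on the 6 at 24 h for the same genes, and on 12 arrays for the change between them. The 18-array fit is an alternative, since DMSO replicate 3 at 72 h stands apart and widens its spread. The code was tested on simulated data.

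The comparison, the 36 lists and the tests were chosen with earlier results of these data known. Named genes are the 10 largest differences in each direction among called genes that do not overlap (values floored at the array median), the 4 members of each list with the lowest adjusted p, a fixed panel of regulators, and the 5 clearest changes to 24 h in each direction. Further list members named with values were picked after these were seen. Some genes of the panel are not reported here.

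Same-numbered monuron and DMSO arrays deviated together (correlations of deviations 0.509, 0.207 and 0.306), all above 0.1. The labels do not say that arrays of 1 number belong together. The replicate number entered an alternative fit as a block, and the main fit took no account of it. Arrays 2 and 3 were not separated by number, with 0.307 for monuron 3 with DMSO 2 and 0.139 for monuron 2 with DMSO 3. The fit with the replicate block is given beside some of the results it moves. Promoter letters come from RefSeq on GRCr8.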

Additional observations from a re-analysis of the deposited data

Results flagged for a closer look

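For 19 genes among those named for the size of their difference at 6 h and the fixed panel of regulators, the monuron difference at 24 h differed from that at 6 h by limma's test of the change (24 h minus 6 h, log2, 12 arrays). Among the cholesterol genes and Bdh1 the change was positive, with 1.91 for Tm7sf2, 1.82 for Mvd, 1.49 for Insig1, 1.44 for Hsd17b7, 1.42 for Fdft1, 1.22 for Idi1, 0.99 for Mvk and 0.91 for Bdh1. It was also positive for the stress genes Bcat1 (1.99), Trib3 (1.14), Asns (1.04) and Ddit3 (0.82), and for Cdkn1a (0.61) and Nqo1 (0.46). It was negative for Nrbp2 (-2.06), Purg (-1.02), Chac1 (-0.80), Myc (-0.67) and Atf4 (-0.60).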

How the results depend on the processing

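The 1375 calls at 6 h became 723 with no filter on dim probe sets, 685 with the mean of a gene's probe sets, 791 without the variance trend, 571 in the fit of all 18 cell arrays and 3078 with the replicate block. Leaving out 1 array gave 274 to 1381 calls. Other settings gave counts within 1.5 times of it: 1199 in 17 arrays (DMSO 72 h replicate 3 left out), 1202 centred, 1354 with quantile normalization and 2057 in 12 arrays. The 1642 changes from 6 h to 24 h became 110 in the fit of 18 arrays, 2297 with the replicate block and 991 to 1862 with 1 array left out, and with centred arrays 1348, of which 67.3% were positive. Of 112 named genes called at 6 h, 32 were called under every alternative, 49 in the 18 arrays, 112 with the block, 106 centred and 62 without the second monuron array. Signs turned for Tef with the mean of its probe sets (0.038), and for genes not called: Scarb1 with floored values (0.0057) and between -0.49 and 0.021 with 1 array left out, Synpo without replicate 1 of both groups (-0.11) and between -0.064 and 0.25 with 1 array left out, Tek with quantile normalization (-0.035), without replicate 1 of both groups (-0.060) and between -0.24 and 0.30 with 1 array left out, and Mdm2 with the mean of probe sets (-0.031), centred (-0.057) and between -0.11 and 0.195 with 1 array left out. The causes were not tested. Of 44 further probe sets of the named called genes, 40 had the same sign.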
